A study of Caenorhabditis elegans with 4 samples.

Results

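The 9 genes described here encode the chromatin arm of RNA silencing in Caenorhabditis elegans: the nuclear RNA interference factors nrde-1, nrde-2 and nrde-4, the histone H3 lysine 9 (H3K9) methyltransferase genes met-2, set-25 and set-32, the gene lin-61 for a protein that binds methylated H3K9, and the HP1 genes hpl-1 and hpl-2. They were taken by name from a table that lists 18468 genes and 170 repeat elements (18638 features), and all 9 were present in it. The table compares poly(A) RNA of whole gravid adults of N2, the laboratory wild type, with that of YY1449, a strain mutant for rde-3, in 2 libraries per strain. The product of rde-3 (mut-2 in the table) is an enzyme that extends silenced RNAs with poly(UG) tails. The labels name no allele, and each genotype is 1 strain, so rde-3 and other differences between YY1449 and N2 cannot be told apart. The name of the comparison puts the mutant first, and log2 values were therefore read as mutant over wild type.

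In nuclear RNA interference, an Argonaute protein loaded with a small RNA (NRDE-3 in the soma, HRDE-1 in the germline) enters the nucleus and finds nascent transcripts. NRDE-2, NRDE-1 and NRDE-4 act after it, and the locus gains methylated H3K9. MET-2 places the lower methylation states and SET-25 the trimethyl mark, SET-32 acts with them in silencing guided by small RNAs, and LIN-61 and the HP1 proteins bind the mark. Poly(UG)-tailed RNAs act upstream, as templates for the amplified small RNAs that such Argonautes carry.

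One of the 9 genes, nrde-2, was higher in the rde-3 mutants at the adjusted p of 0.05 of the authors' deposited table, by 1.33-fold, and 0 were lower. In that table, 9.42% of all features were called higher and 8.04% lower, and of the 7700 features with a mean of at least 100 normalized counts 19.1% and 14.9%, so 1 of 9 is near the background. With limma on reads recovered per library (below), nrde-2 (adjusted p = 0.016) and set-25 (adjusted p = 0.0441) passed, 2 of 9 against 18.4% of features called higher and 18.6% lower by that fit. The unadjusted p was under 0.05 for 4 of the 9 in the authors' deposited table. The share of all features at that unadjusted threshold was not computed, so this count is not read as a result about the 9. The median log2 fold change of the 9 genes was 0.29, beside -0.02 for all features and 0.06 for those with a mean of at least 100. A log2 value above 0 was listed for 8 of the 9, against 49% of all features and 54.4% of the abundant ones.

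Reads per library were recovered for this description. The deposited mean of each feature is a sum of whole reads, each weighted by its library's size factor, and it is written to enough digits that, within a window around the deposited ratio of the groups, 1 set of 4 whole numbers gave the mean of each of the 9 genes. A negative binomial fit to these reads returned the deposited log2 fold changes of the 9 genes to within 7.5e-07, far closer than the window requires. Libraries were assigned to a strain by the sign of the deposited log2 value of features read in 1 library, and they carry no replicate number; A is the larger library of each strain. The recovered features held 14887341 and 10651258 reads in the wild-type libraries A and B and 12511494 and 7751446 in the mutant libraries A and B. The values below are reads divided by size factor (normalized counts), and the SD is not given because both values of each group are.

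The nuclear RNAi factors differed in how far their libraries separated. For nrde-2 (chromosome II, 10242596 to 10247638, minus strand, build WBcel235), which encodes a conserved protein that joins NRDE-3 and HRDE-1 on nascent RNA, the wild-type libraries had 2348 and 2744 normalized counts and the mutant libraries 3318 and 3439. Both mutant libraries lay above both wild-type ones. The authors' deposited table gave nrde-2 a log2 fold change of 0.41 ± 0.13 (SE, n = 2 per group, adjusted p = 0.0124), a 1.33-fold rise with a 95% interval of 1.11 to 1.58. In limma fits that left out 1 library, the log2 value of nrde-2 was 0.30 without wild-type library A and 0.52 without wild-type library B. It was 0.44 without mutant library A and 0.39 without mutant library B. Such fits hold 1 library in a group, so only their log2 values are given. The deposited call was lost with standard errors multiplied by 1.5 (adjusted p = 0.28). It was also lost, at a log2 value of 0.12, once a trend of log2 values on transcript length (below) was subtracted (adjusted p = 0.712). For nrde-1 (chromosome III, 3713463 to 3718750, plus strand), whose protein binds pre-mRNA and chromatin of silenced genes, the normalized counts were 743 and 780 in wild type and 949 and 931 in the mutants. The groups did not overlap, and the spread within each was small, but the log2 fold change of 0.305 ± 0.15 in the authors' deposited table did not pass (adjusted p = 0.171). For nrde-4 (chromosome IV, 7646320 to 7654262, minus strand), needed for NRDE-1 to reach chromatin, the normalized counts were 1770 and 1986 in wild type and 1968 and 1980 in the mutants. Here the mutant values fell within the wild-type range, and the log2 fold change in the authors' deposited table was 0.07 ± 0.13 (adjusted p = 0.858).

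**Figure D1:**
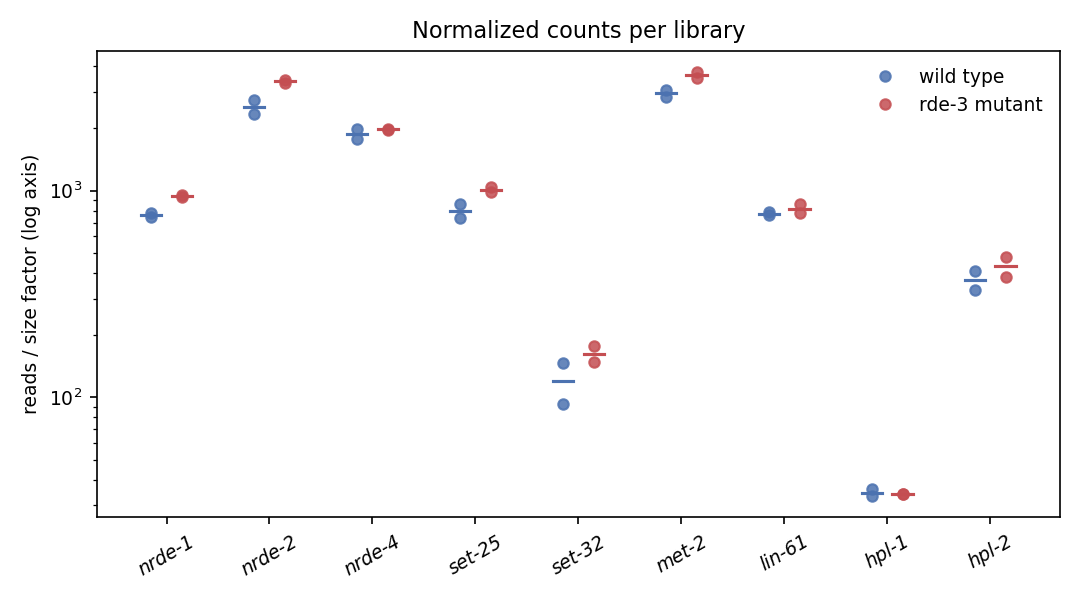
Normalized counts (reads divided by size factor, log axis) of the 9 genes in each library: points are the 2 wild-type and the 2 rde-3 mutant libraries and short bars are group means. For nrde-2 the mutant libraries sit at 3318 and 3439, above 2348 and 2744 in wild type, while for nrde-4, lin-61, hpl-1 and hpl-2 the groups overlap.

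All 3 methyltransferase genes had higher values in the mutants, and none passed in the deposited test. The gene met-2 (chromosome III, 8375300 to 8380848, plus strand), a relative of mammalian SETDB1, had 2830 and 3081 normalized counts in wild type and 3486 and 3746 in the mutants. The groups were apart by more than the gap within either. Its log2 fold change in the authors' deposited table was 0.29 ± 0.12 (adjusted p = 0.0867), a ratio of 1.22 with a 95% interval of 1.04 to 1.44. The gene set-25 (chromosome III, 13283824 to 13293090, minus strand) had 733 and 857 normalized counts in wild type and 1039 and 984 in the mutants. Again the groups did not overlap, with a log2 fold change of 0.35 ± 0.16 in the authors' deposited table (adjusted p = 0.112). The limma call for set-25 with all libraries was near the threshold (adjusted p = 0.0441). With 1 library left out in limma, its log2 value ran from 0.24 to 0.46. The gene set-32 (chromosome I, 9519244 to 9521275, plus strand) had 92.4 and 146 normalized counts in wild type and 176 and 148 in the mutants. Its groups touched: the higher wild-type library lay just below the lower mutant one, and the wild-type libraries differed by 45.3% of their mean. The largest log2 fold change of the 9 in the authors' deposited table, 0.46 ± 0.32, belonged to set-32 and did not pass (adjusted p = 0.423). In limma set-32 did not pass with all libraries (adjusted p = 0.108). Without wild-type library A its log2 value was 0.14, without wild-type library B 0.80, without mutant library A 0.35 and without mutant library B 0.59.

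The genes whose proteins bind methylated H3K9 overlapped between the strains. For lin-61 (chromosome I, 7248827 to 7251282, minus strand), which encodes a protein with malignant brain tumor (MBT) repeats, the normalized counts were 759 and 787 in wild type and 858 and 779 in the mutants. One mutant library lay between the wild-type ones, and the log2 fold change in the authors' deposited table was 0.09 ± 0.16 (adjusted p = 0.86). For hpl-2 (chromosome III, 10752195 to 10755530, minus strand), the HP1 gene with the stronger known roles in the germline and vulva, they were 331 and 408 in wild type and 479 and 380 in the mutants. The log2 fold change of hpl-2 in the authors' deposited table was 0.22 ± 0.21 (adjusted p = 0.625). With 1 library left out in limma, log2 values ran from 0.049 to 0.38 for hpl-2 and from 0.012 to 0.15 for lin-61. For hpl-1 (chromosome X, 13245390 to 13247044, plus strand), its paralog, they were 36.0 and 33.2 in wild type and 34.1 and 33.9 in the mutants, from 24 to 51 reads a library. With so few reads the 95% interval of hpl-1 in the authors' deposited table ran from 0.467-fold to 2.07-fold around a log2 fold change of -0.03 ± 0.55 (adjusted p = 0.989).

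Across the 9 genes, both mutant libraries lay above both wild-type libraries for 5, nrde-1, nrde-2, set-25, set-32 and met-2, and below them for 0. Such a separation was common: 34.5% of the 12345 features whose reads were recovered lay above and 34.5% below, and of those with a mean of at least 100, 40% above and 33.4% below. A miss of the threshold does not show that a gene was unchanged, but the intervals bound the change. For 7 of the 9 genes the upper end of the 95% interval of the authors' deposited table was under 2-fold, from 1.26-fold for nrde-4 to 1.58-fold for nrde-2. The other two, set-32 and hpl-1, had upper ends of 2.11-fold and 2.07-fold and the lowest read numbers.

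**Figure D2:**
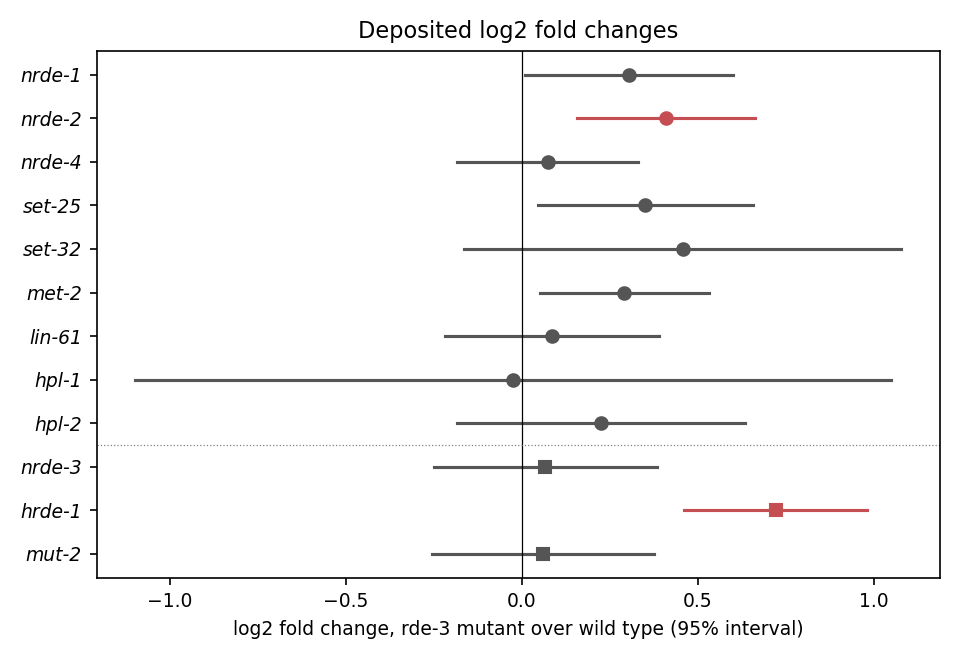
Log2 fold changes of the authors' deposited table (rde-3 mutant over wild type) with 95% intervals from its standard errors, for the 9 genes (circles) and, below the dotted line, nrde-3, hrde-1 and mut-2 (squares); red marks an adjusted p under 0.05. Of the 9 genes only nrde-2 is red, at 0.41, and the intervals of nrde-1, set-25 and met-2 also leave out 0 before adjustment.

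Genes of like role did not differ from each other beyond their errors in the pairs compared. The log2 fold change of nrde-2 was above that of nrde-4 by 0.34 (95% interval -0.02 to 0.70) and above that of nrde-1 by 0.10 (-0.28 to 0.49). That of set-25 was above that of met-2 by 0.06 (-0.33 to 0.45), and that of set-32 above that of set-25 by 0.11 (-0.59 to 0.80). The paralogs hpl-2 and hpl-1 differed by 0.25 (-0.90 to 1.40), an interval too wide to tell. These intervals join the standard errors of the authors' deposited table as if independent, although the genes share libraries. No p was computed for them.

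Levels spanned a wide range when set per kilobase of the longest annotated transcript. At the top stood met-2 with a mean of 795 normalized counts per kb, nrde-4 with 769 and nrde-2 with 731. Their ranges over the 4 libraries overlapped (685 to 907, 707 to 793 and 579 to 848 per kb). Within each library met-2 stood above nrde-2. The place of nrde-4 changed: it was above both in the wild-type libraries and below both in the mutant libraries. Next came lin-61 with 433 per kb, hpl-2 with 379, nrde-1 with 331 and set-25 with 323. Within each library lin-61 stood above hpl-2. The order of hpl-2 and nrde-1, and that of nrde-1 and set-25, changed between libraries. The third methyltransferase gene, set-32, had 85.2 per kb (55.9 to 107), and hpl-1 had 42.8 per kb (41.4 to 44.8), both below all the others in every library. Per kb, hpl-2 was 8.86 times as abundant as hpl-1 and met-2 was 2.47 times as abundant as set-25. These are levels of whole animals, and the reads of the several transcripts annotated for nrde-1, nrde-4, lin-61 and hpl-2 were not told apart.

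Among genes with a mean of at least 100 and an annotated length, a smooth trend of log2 value on transcript length was higher at the lengths of the longer of the 9 genes. It stood at 0.29 for the 4.05 kb of nrde-2 and the 4.13 kb of met-2, at 0.21 for the 2.80 kb of set-25, and at -0.24 for the 0.802 kb of hpl-1. With that trend removed, nrde-2 had a log2 value of 0.12 and no longer passed (adjusted p = 0.712), met-2 stood at 0.00046 and lin-61 at 0.0012, and nrde-1 and set-25 at 0.12 and 0.14. The HP1 gene hpl-2 and set-32, with shorter transcripts, stood at 0.36 and 0.40, and neither passed. The part of length in the change of nrde-2 was not tested beyond this removal.

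**Figure D3:**
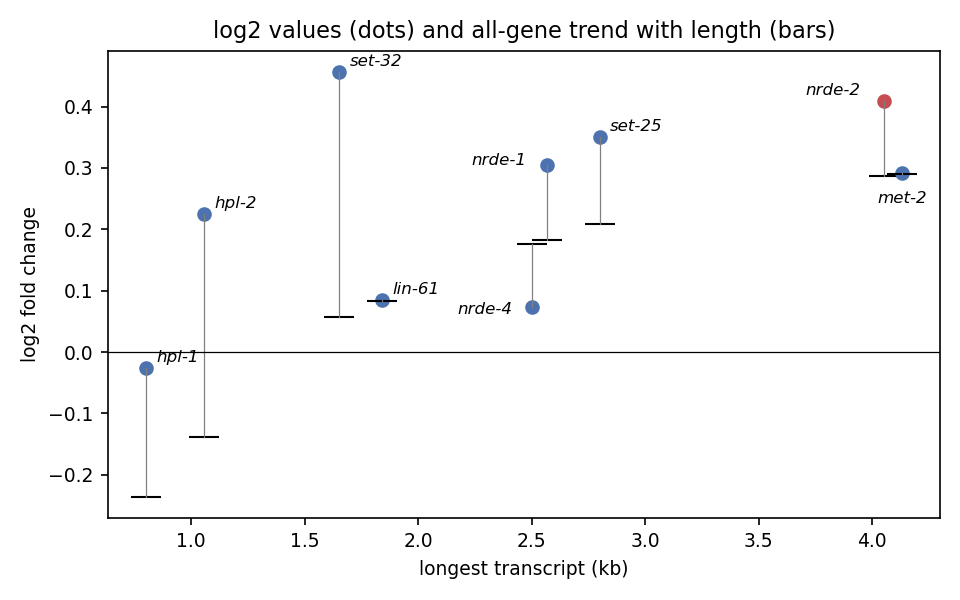
Log2 fold change of the authors' deposited table (vertical axis) against the length of the longest transcript in kb (horizontal axis) for the 9 genes; dots are the genes, red for nrde-2, which passed, and black bars are the trend of all abundant genes at that length. The dots of met-2 and lin-61 lie on the trend, and nrde-2 lies 0.12 above it.

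Reads of neighbouring genes could enter few of these values. Genes overlapped 3 of the 9 in the Ensembl annotation, and libraries of this kit keep no strand, so reads in shared exons cannot be assigned to either gene. The shared exonic stretch was 99 bases for nrde-1 (with C14B1.8), 91 bases for nrde-4 (with cima-1), and 64 bases (with unc-64) and 21 bases (with the piRNA locus 21ur-12617) for set-25. In the authors' deposited table C14B1.8 had a log2 value of -0.48 ± 0.19 (adjusted p = 0.0551), cima-1 of 0.07 ± 0.34 (adjusted p = 0.945) and unc-64 of 0.21 ± 0.20 (adjusted p = 0.654). The called gene, nrde-2, and 5 of the others overlapped no annotated gene.

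Of the Argonautes that feed this pathway, the germline one was higher. The gene hrde-1 (chromosome III, 4172337 to 4176159) had 10894 and 12334 normalized counts in wild type and 21196 and 17089 in the mutants. Its groups were far apart, with a log2 fold change of 0.72 ± 0.13 in the authors' deposited table (adjusted p = 1.5e-06), a 1.65-fold rise. The somatic nrde-3 had 722 and 831 normalized counts in wild type and 769 and 857 in the mutants, and these overlapped (log2 0.07 ± 0.16 in the authors' deposited table, adjusted p = 0.896). The mutated gene mut-2 itself had 726 and 805 in wild type and 846 and 745 in the mutants (log2 0.06 ± 0.16 in the authors' deposited table, adjusted p = 0.905), which with an unnamed allele does not check the labels. Among 8 partners of nuclear RNAi, hrde-1 and hrde-2, which helps HRDE-1 bind its small RNAs (log2 0.50 ± 0.18, adjusted p = 0.0352), were higher in the authors' deposited table and 0 were lower, with a median log2 value of 0.17, where 9.42% of all features and 19.1% of the abundant ones were higher. In limma, which called 18.4% of features higher, 3 of these partners were higher. That count shifted when 1 library was left out, and so did the count over all features.

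Lists of other genes around H3K9 methylation are read against the same shares, 9.42% higher and 8.04% lower over all features and 19.1% and 14.9% over abundant ones. Of 16 genes for cofactors of the methyltransferases, readers of the mark and proteins that hold chromatin at the nuclear envelope, 5 were higher and 0 lower in the authors' deposited table (median log2 0.35). The 4 with the lowest adjusted p there were, by the authors' deposited table, lin-13, whose zinc finger protein binds HPL-2 (log2 0.52 ± 0.13), the chromodomain gene cec-8 (1.56 ± 0.45), lem-2 for a protein of the inner nuclear membrane (0.57 ± 0.18) and the lamin gene lmn-1 (0.33 ± 0.11). Of 15 synMuv B genes, which with hpl-2, met-2 and lin-61 oppose vulval and germline fates in the wrong cells, 7 were higher and 0 lower in the authors' deposited table (median log2 0.41). They included the chromatin remodeler gene let-418 (log2 0.67 ± 0.13), tam-1 (0.58 ± 0.13), lin-13 and lin-36 (0.46 ± 0.13) in the authors' deposited table. With the length trend removed, 3 of the 16 and 1 of the 15 were higher, beside 1252 of all 18638 features, against 1755 before removal. In limma, with 18.4% of features higher, 7 of the 16 and 9 of the 15 were higher. Both counts shifted when 1 library was left out, and so did the count over all features.

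The authors' deposited table called 9 of 21 other histone methyltransferase genes higher and 1 lower (median log2 0.23). The shares beside this are 9.42% and 8.04% of all features, and 19.1% and 14.9% of those with a mean of at least 100. Some genes of this list and of the demethylase list had means under 100. The H3K4 methyltransferase gene set-16 (log2 0.89 ± 0.12), the H3K36 methyltransferase gene met-1 (0.81 ± 0.13), and set-26 (1.03 ± 0.15) and set-9 (0.71 ± 0.15) had the smallest adjusted p among the rises in the authors' deposited table. The sequences of set-26 and set-9 are nearly the same, so the division of reads between them is uncertain. The gene that fell in the authors' deposited table, set-1, encodes the enzyme that monomethylates histone H4 (log2 -0.57 ± 0.13) and is named here because it was the only fall. Of 14 histone demethylase genes 4 were higher and 0 lower in the authors' deposited table (median log2 0.41), again beside the same shares. They were jmjd-2 (log2 0.91 ± 0.16), which acts on H3K9 and H3K36, and amx-1 (0.78 ± 0.20). The others were jmjd-1.2 (0.45 ± 0.16), which acts on H3K9 and H3K27, and rbr-2 (0.35 ± 0.13), which acts on H3K4. With the length trend removed, 6 of the 21 methyltransferase genes and 2 of the 14 demethylase genes were higher, beside 1252 of all 18638 features. In limma 9 and 7 were higher, with 18.4% of all features. These counts and that over all features shifted when 1 library was left out. Whether these lists differ from the 9 genes was not tested.

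**Figure D4:**
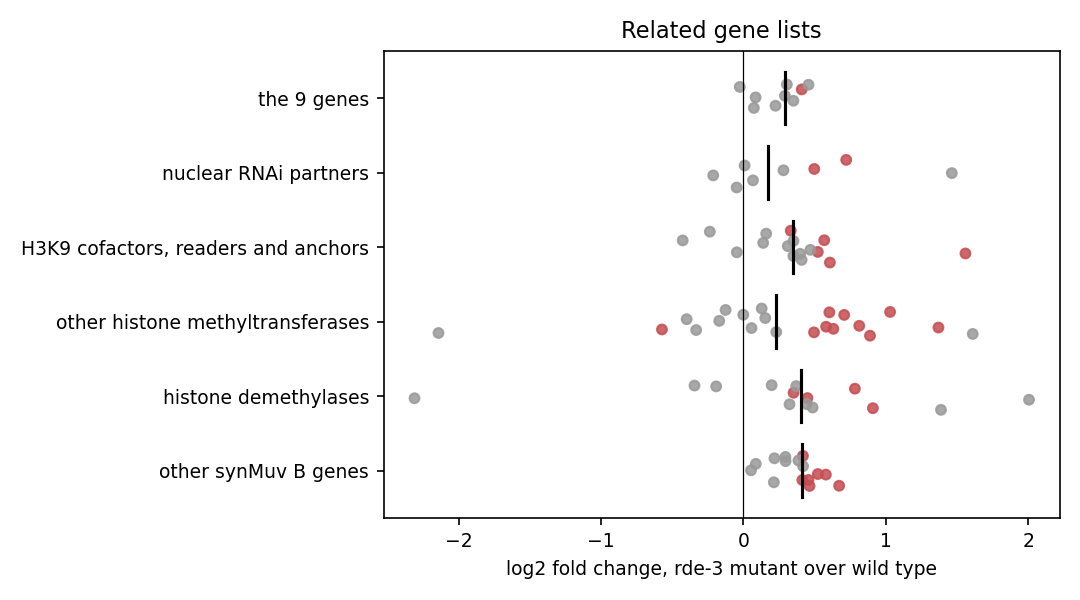
Log2 fold changes of the authors' deposited table for the 9 genes and for 5 lists of related genes, 1 dot per gene (red where the adjusted p was under 0.05), with the median of each as a black bar. The 9 genes lie between -0.03 and 0.46 with 1 red dot, and the other lists hold 2 to 10 red dots.

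Markers of some tissues differed between the strains as well. Their counts are read against 9.42% of all features higher and 8.04% lower, and 19.1% and 14.9% of the abundant ones. By the authors' deposited table, 21 of 24 oocyte and eggshell genes were higher (median log2 0.48; cav-1 1.53 ± 0.21, cpg-2 0.75 ± 0.12), 17 of 24 sperm genes were lower (median log2 -2.53; ssq-4 -2.57 ± 0.19, ssq-2 -2.75 ± 0.21), and 15 of 15 body wall muscle genes were lower (median log2 -1.55; tnt-2 -1.96 ± 0.12, dim-1 -2.004 ± 0.13). Of 21 genes of germline proliferation, meiosis and P granules 5 were higher and 6 lower (median log2 0.01; fbf-2 -1.14 ± 0.18, glh-2 0.81 ± 0.13), of 12 early zygotic genes 1 was higher (median log2 0.45; vet-2), of 11 intestine genes 3 were higher (median log2 0.12; pgp-1 and cpr-1 among them), and of 16 neuronal genes 0 passed (median log2 -0.09) in the authors' deposited table. The summed normalized counts of the recovered oocyte genes were 131772 and 145789 in wild type and 204767 and 174727 in the mutants. Those of the recovered sperm genes were 5534 and 4322 in wild type and 845 and 892 in the mutants, and those of the muscle genes 80610 and 82341 against 28938 and 28673. Since these are whole animals, fewer cells of a type and less RNA per cell cannot be told apart, and the part of tissue makeup in the values of the 9 genes was not tested.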

How the data were processed

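The files are 2 tables of the authors' own comparison, and the smaller one repeats the 3254 features that pass an adjusted p of 0.05. Per the submitters' processing notes, the tools were STAR 2.7.0a, SAMtools 1.3.1, cutadapt 1.14 and Trim Galore 0.4.4, with builds ce11 and WBcel235. For the counting tool and the statistical model, names were not given in the sources used here. Per the labels, mRNA was purified on oligo(dT) beads and libraries were made with Nextera XT. The signal column deposited by the authors is a mean of counts over size factors, read from its name and values. The log2 fold change has a standard error beside it, both deposited by the authors. The deposited score is the Wald statistic, their ratio to within 1.12e-13. The deposited adjusted p-value equals a Benjamini-Hochberg adjustment across the whole table to within 1.83e-15.

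All 3528 features with a mean under 3 were sums of 4 steps (tolerance 1e-08), which give size factors of 1.42 and 0.963 (wild type) and 1.06 and 0.707 (mutant). For means from 10 to 20000, whole reads that gave the mean were searched, near the deposited ratio of groups, and kept if a negative binomial fit with the deposited standard error returned the deposited log2 value to within 1e-04. This solved 12345 of 12362 features with a largest gap of 2.6e-05. Intervals are 95%, from the deposited standard errors. Lengths and coordinates are from Ensembl release 115 (WBcel235), matched by name for 18292 genes; 176 were not matched. The length trend is a lowess curve (fraction 0.3, statsmodels 0.14.6). Solved reads were also tested with limma 3.58.1 (R 4.3.3) on log2(normalized count + 1) with a mean-variance trend, an alternative added after seeing the data. Nothing says that the 2 libraries of a strain came from separate cultures beyond the word biological in the design text.

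The 9 genes and all lists were chosen with earlier results of these data known. Named genes are the 9, mut-2, nrde-3, hrde-1, up to 4 called genes of smallest adjusted p per related list and up to 2 per tissue list. Related lists not found in full lacked set-11, and tissue lists lacked 5 genes.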

Additional observations from a re-analysis of the deposited data

How the results depend on the processing

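No paired analysis was possible because the recovered libraries carry no replicate number. The count of 1 higher gene among the 9 held when p was adjusted over features with a mean of at least 10 or over genes alone, and after recentring on the median of abundant features (a shift of 0.06 in log2). With a t distribution (2 degrees of freedom) 0 of all 18638 features passed, so that 0 of the 9 and 0 of every list below, nrde-2 included (log2 0.41, adjusted p = 0.682), says nothing about these genes. The count was 0 with the length trend removed (log2 0.12, adjusted p = 0.712), with standard errors multiplied by 1.5 (log2 0.41, adjusted p = 0.28) and at an adjusted p of 0.01 (log2 0.41). Over all 18638 features, these settings called 1252, 572 and 1206 higher, against 1755 in the main test. With so few calls, 0 of 9 says little about these genes. With limma the count was 2, beside 2268 of 12345 features higher, with set-25 at log2 0.35 (adjusted p = 0.0441). The count of the 9 and that over all features shifted when 1 library was left out. In those fits the log2 value ran from 0.30 to 0.52 for nrde-2, 0.24 to 0.46 for set-25 and 0.14 to 0.80 for set-32. It ran from -0.0089 to 0.16 for nrde-4 and -0.078 to 0.033 for hpl-1. Such fits hold 1 library in a group, assumed to vary like the other group. With the length trend removed the sign turned for nrde-4 (log2 -0.10) and hpl-1 (log2 0.21), neither of them past the threshold. The count of lower genes among the 9 was 0 in the main test and under every alternative with all libraries, limma included. Beside it, 8.04% of all features were lower in the main test and 18.6% in limma, so 0 of 9 says little about these genes. At an unadjusted p under 0.05 in the deposited test 0 of the 9 were lower, but the share of all features was not computed there.

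For the related lists (main counts higher: nuclear RNAi partners 2, H3K9 cofactors 5, other methyltransferases 9, demethylases 4, synMuv B 7), standard errors multiplied by 1.5 left 1, 0, 4, 1 and 1 higher and 0 lower methyltransferase genes. An adjusted p of 0.01 left 1 partner, 2 cofactors, 7 methyltransferases, 2 demethylases and 5 synMuv B genes. Recentring left 1 partner, 4 cofactors, 9 methyltransferases, 2 demethylases and 5 synMuv B genes. It also gave 1 lower cofactor, as did adjustment over features with a mean of at least 10. Removal of the length trend left 2 partners, 3 cofactors, 6 methyltransferases, 2 demethylases and 1 synMuv B gene. Limma gave 3 partners, 7 cofactors, 9 methyltransferases, 7 demethylases and 9 synMuv B genes higher, and 1 cofactor, 1 methyltransferase and 1 demethylase lower. Of the 12345 features in that fit, 2268 were higher and 2294 lower. With 1 library left out these ran from 0 to 4, 1 to 10, 6 to 9, 2 to 6 and 0 to 10 higher, and lower from 0 to 1 cofactors, 0 to 3 methyltransferases and 0 to 1 demethylases. The cause of these shifts was not tested. Depth limits hpl-1 and set-32 most, with 24 to 186 reads per library.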
